A study of Homo sapiens with 6 samples.

Results

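Peaks beside centromeres and on contigs held outside the chromosomes were described in 3 peak lists from CCLP1, an established human cell line derived from a bile duct carcinoma. The lists come from chromatin immunoprecipitation followed by sequencing (ChIP-seq), in which DNA bound by a protein is pulled down, sequenced and searched for places where reads pile up. The first list was made with a YAP antibody, the second with a TEAD antibody (the series' design text names TEAD1) and the third came from cells labelled Flag-Bio-YAP5SA, written YAP5SA below, which carry YAP5SA, a mutant of YAP. Libraries labelled IgG, Input and BirA, the last being the control for the tagged protein, complete the 6 samples and were not used here. All cells are the same line, fixed for 10 min in 1% formaldehyde, with 1 library per group. The labels give neither the antibody of the YAP library among the 2 in use nor the promoter behind the tagged protein.

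The members were chosen by position alone. A peak was taken if it lay on a contig, a piece of sequence that hg19 holds outside the chromosomes, or on chromosomes 1 to 22 no farther than 2 Mb from a peak-free stretch, meaning one longer than 2.5 Mb without a peak in any list. In all, 1359 of 22804 peaks met the rule. They were 483 of 3867 YAP peaks (12.49%, exact Clopper-Pearson 95% interval 11.5 to 13.6), 592 of 9321 TEAD peaks (6.35%, 5.86 to 6.87) and 284 of 9616 YAP5SA peaks (2.95%, 2.62 to 3.31). Of these, 64 YAP, 92 TEAD and 39 YAP5SA peaks lay on contigs. The rule used where peaks are and where they are missing, so their number and their nearness to the stretches are descriptions. Width, score and overlap with other lists did not enter it. Each list is 1 library, so no value has a replicate error and none was tested. Intervals are for counting error only. They take each peak as independent, which neighbouring peaks are not, so they are too narrow.

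TEAD proteins bind DNA directly, while YAP has no DNA-binding domain of its own and reaches chromatin mainly through TEAD. The mutant YAP5SA lacks serines that LATS kinases phosphorylate to hold YAP in the cytoplasm. Human centromeres consist of alpha satellite, a long tandem repeat, and are flanked by other satellites and by duplicated segments. In hg19 most of this DNA is a run of unread bases, and only the outermost copies appear in the sequence. Reads from the many missing copies can then be placed on the few that are present, in any library, including input. Classical satellites, which form large blocks on several chromosomes, repeat a short unit that spells much of the core element recognised by TEAD proteins. The sequence of hg19 was not used here, so no sequence is printed, and which peaks lie on which repeat was not established.

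The positions of the stretches were checked against what is known of the chromosomes. The rule found 18 stretches, exactly 1 on each of chromosomes 1 to 12 and 16 to 21. It found none on chromosomes 13, 14, 15 and 22, which are acrocentric: their centromere lies near the lower end and no peak preceded it. Of the 18, 15 were 3 to 3.48 Mb long. The other 3 were 21.05 Mb on chromosome 1, 18.92 Mb on chromosome 9 and 11.11 Mb on chromosome 16, the chromosomes known for large heterochromatic blocks beside the centromere. The stretch began at 48.7% of the span of peaks on chromosome 1, a metacentric chromosome, and at 4.41% on chromosome 21, an acrocentric one. No annotation of centromeres in hg19 was used here.

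YAP peaks grew denser in each bin towards the stretches, TEAD peaks did so unevenly, and YAP5SA peaks were near their outer level down to 200 kb. Counted over the 36 flanks, YAP had 1.89 peaks per Mb at 1.5 to 2 Mb from a stretch, 6.02 at 200 to 500 kb, 28.3 at 50 to 100 kb and 122 in the first 10 kb. TEAD had 2.33, 13.8, 15.6 and 125 peaks per Mb in the same bins, but 8.06 at 100 to 200 kb, and 4.67 at 1 to 1.5 Mb beside 4.17 at 500 kb to 1 Mb. YAP5SA had 3.22, 3.43 and 5.56, and then 25 from 9 peaks in the first 10 kb. At 100 to 200 kb it had 4.44 from 16 peaks, and at 10 to 50 kb 4.86 from 7 peaks. By the rule every stretch ends at a peak, so the first 10 kb holds the edge peaks by construction: 5 of the 9 YAP5SA, 24 of the 44 YAP and 7 of the 45 TEAD peaks there. Outside the limit, at 2 to 5 Mb, YAP had 1.44 peaks per Mb, TEAD 3.76 and YAP5SA 3.26. Between 500 kb and 2 Mb TEAD (3.72) and YAP5SA (3.07) thus stood close to their level outside, and YAP stood at 2.46. Within 100 kb of a stretch lay 42.0% of the YAP members near a stretch (176 of 419), 24.2% of the TEAD members (121 of 500) and 10.6% of the YAP5SA members (26 of 245). Beyond 500 kb the YAP5SA members had a median width of 170.5 bp and a median score of 57.3, beside 163.5 bp and 58.0 at 2 to 5 Mb.

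The TEAD bin at 200 to 500 kb rested on chromosomes 10 and 21. Without both it fell from 13.8 to 4.90 peaks per Mb, and the YAP value from 6.02 to 2.40. In the first 100 kb the TEAD density fell from 33.6 to 21.9 without them, mostly through chromosome 10, and the YAP density was 48.9 with them and 49.7 without. Bases that hg19 leaves unread were counted as flank, so densities are lower bounds.

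**Figure D1:**
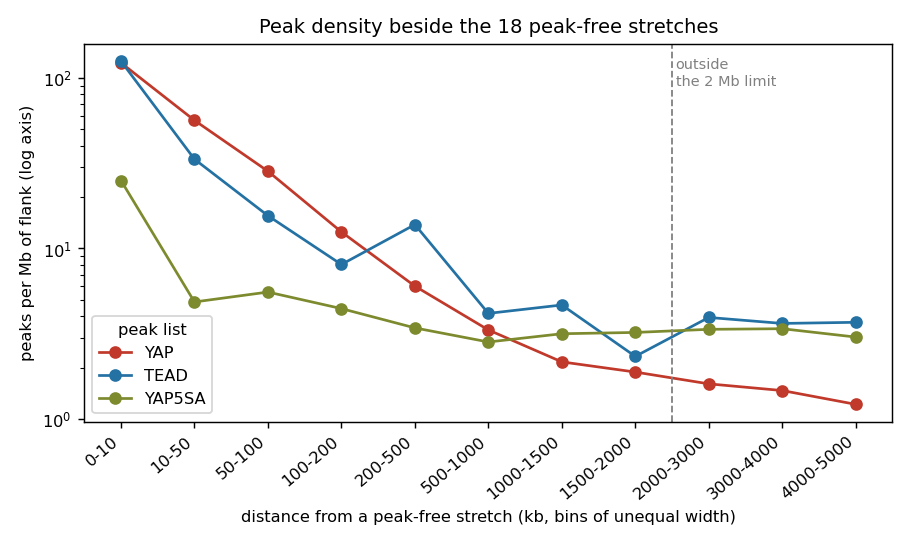
Peaks per Mb (log axis) by distance from the nearest of the 18 peak-free stretches, over both flanks of each, for the 3 lists; the dashed line marks the 2 Mb limit of the rule. YAP and TEAD reach 122 and 125 peaks per Mb in the first 10 kb, while YAP5SA is near 3 peaks per Mb over most of the range.

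Peaks just inside and just outside the limit had similar values. The last YAP peaks inside it, on chromosome 10 at 1967 kb and chromosome 16 at 1985 kb, were 300 and 226 bp wide with scores of 54.0 and 60.9. The first ones outside, on chromosome 18 at 2059 kb and chromosome 3 at 2067 kb, were 311 and 296 bp wide with scores of 54.3 and 54.0. The nearest TEAD peaks, 141 and 177 bp wide inside and 168 and 192 bp outside, and the nearest YAP5SA peaks, 136 and 167 bp inside and 174 and 333 bp outside, were all narrow too.

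Members were wider than other peaks in each list, and the medians differed most for YAP. The median width of YAP members was 528 bp (interquartile range 335 to 974) against 304 bp for other YAP peaks, that of TEAD members 333.5 bp (201 to 618) against 210 bp, and that of YAP5SA members 179 bp (143 to 260) against 163 bp. Over 1 kb wide were 116 YAP members (24.0%, 95% interval 20.3 to 28.1) against 44 other YAP peaks (1.30%), with 4.14% over the whole list. For TEAD these were 85 members (14.4%, 11.6 to 17.4) against 66 other peaks (0.756%), with 1.62% over the list. For YAP5SA the numbers were 16 members (5.63%, 3.25 to 8.99) against 13 other peaks (0.139%), with 0.302% over the list. Contigs had 10 of the 16, which were 25.6% of the YAP5SA contig members, and the other 6 were 2.45% of those near a stretch. Without 9_gl000199_random the YAP5SA share was 3.25%, and without chromosome 4 the TEAD share was 11.35%. Taking the lists together, 217 of 1359 members exceeded 1 kb (16.0%) against 1.49% of all peaks. Other peaks, here and below, include those beside the stretches of chromosomes X and Y, which the rule leaves out. With these moved to the members, 0.817% of other YAP peaks and 0.501% of other TEAD peaks exceeded 1 kb.

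The share of wide peaks was highest in the first 10 kb but did not fall steadily from there. In the first 10 kb, 24 of 44 YAP peaks and 21 of 45 TEAD peaks exceeded 1 kb (54.5% and 46.7%), as did 4 of 9 YAP5SA peaks. For TEAD it was 0 of 28 peaks at 50 to 100 kb, 4 of 149 at 200 to 500 kb (2.68%) and again 20 of 75 at 500 kb to 1 Mb (26.7%). The last of these bins rested on 1 place on chromosome 4, which had 27 of the 75 peaks, with a median width of 1779 bp. For YAP the share was 23.5% at 50 to 100 kb, 12.3% at 200 to 500 kb and 18.3% at 500 kb to 1 Mb. At 1.5 to 2 Mb, 1 of 34 YAP peaks did, and 0 of 42 TEAD and 0 of 58 YAP5SA peaks. Of the 36 edges, 24 were set by a YAP peak (median width 1852 bp), 7 by a TEAD peak (232 bp) and 5 by a YAP5SA peak (163 bp).

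**Figure D2:**
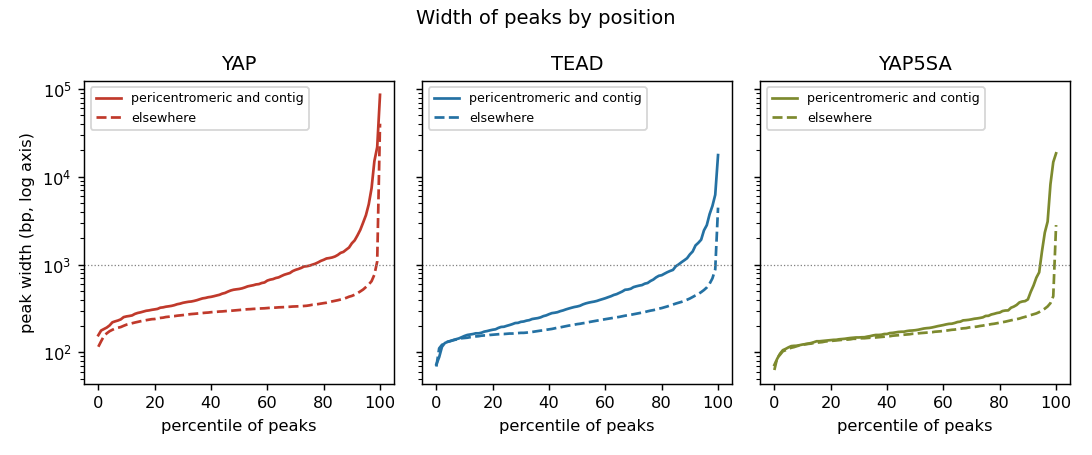
Peak width (bp, log axis) against percentile of peaks for members (solid) and other peaks (dashed) of each list; the dotted line marks 1 kb. The member curve lies above the other over most of the range for YAP and TEAD, with medians of 528 against 304 bp and 333.5 against 210 bp, and mainly in the widest peaks for YAP5SA, with medians of 179 and 163 bp.

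The widest YAP member spanned 85.9 kb of the contig 9_gl000199_random, a piece assigned to chromosome 9 without a place on it. Next came 40.3 kb on chromosome 4 from 49093205 to 49133485, 33.2 kb on the same contig, 26.9 kb on chromosome 4 from 49633255 to 49660150 and 25.1 kb on chromosome 16 from 46385743 to 46410809. The widest TEAD members were 17.7 kb (49640718 to 49658396), 9.35 kb (49093193 to 49102537) and 7.51 kb (49633203 to 49640709) on chromosome 4, and 9.83 kb (42357555 to 42367384) and 7.44 kb (42373700 to 42381139) on chromosome 10. The widest YAP5SA members were 18.5 kb on chromosome 17 from 22244506 to 22263013, 16.7 kb on chromosome 2 from 92309465 to 92326178, and peaks of 16.3, 14.4 and 10.4 kb on 9_gl000199_random. The 5 widest TEAD members and the 5 widest YAP5SA members thus lay on different chromosomes or contigs.

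Over 5 kb wide were 19 YAP members of 29 such peaks in the list (0.750% of all YAP peaks), all 9 such TEAD peaks (0.0966% of the list) and all 8 such YAP5SA peaks (0.0832%). The YAP members over 5 kb made up 52.7% of the bases that YAP members covered. A TEAD peak overlapped 17 of them, and a YAP5SA peak 6. Of the 9 TEAD members, 7 met a YAP peak and 2 a YAP5SA peak, and all 8 of the YAP5SA members met a YAP peak, 4 of them a TEAD peak too. With 12.49% of its peaks, the YAP list had 36.1% of its covered bases in members (720 of 1996 kb). The TEAD list had 15.4% (409 of 2658 kb) and the YAP5SA list 9.36% (175 of 1871 kb).

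Scores are the authors' own and were used only for ranks within a list. Members filled 50 of the 100 highest ranks of the YAP list, against 12.49% of the list, but 9 of the TEAD list and 4 of the YAP5SA list, against 6.35% and 2.95%. The median score of YAP members was 63.5 against 57.7 for other YAP peaks, and of YAP5SA members 57.3 against 56.9. For TEAD it was 76.2 in both.

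The highest-scoring YAP members were the 85.9 kb contig peak, with a score of 3100, and peaks ending at the stretches of chromosomes 8 (2808), 2 (2788) and 17 (2133), each 18.2 kb or wider. The remaining one, on chromosome 10 from 42596637 to 42600644, was 4.01 kb wide and scored 1981. The highest-scoring TEAD members were narrower. They were 2 peaks of 1182 and 1312 bp on chromosome 18 from 13674777 to 13675958 (3100) and from 13673001 to 13674312 (2417), the 9.35 kb (2817) and 17.7 kb (2401) peaks on chromosome 4, and a 6.26 kb peak on chromosome 10 from 42367427 to 42373687 (1990). The highest-scoring YAP5SA members were the 14.4 kb (366), 16.3 kb (348) and a 3.18 kb peak (156) on 9_gl000199_random and the peaks on chromosomes 17 (210) and 2 (191).

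Members were spread unevenly over chromosomes in the YAP and TEAD lists and more evenly in the YAP5SA list. The variance of the count per flank was 8.05 times its mean for YAP, 18.4 times for TEAD and 1.38 times for YAP5SA. The 18 stretches had 3 to 56 YAP members each (median 20), 4 to 102 TEAD members (median 22.5) and 8 to 21 YAP5SA members (median 13). Chromosome 10 had the most with 150, of which 102 were TEAD, 38 YAP and 10 YAP5SA peaks. Chromosome 21 followed with 62 TEAD, 38 YAP and 13 YAP5SA peaks, and 61 of the TEAD and 30 of the YAP peaks lay on the lower-coordinate side. Chromosome 1 had 50 YAP, 34 TEAD and 21 YAP5SA peaks, and chromosome 7 had 56, 15 and 16 in that order. Chromosome 8 had 34 TEAD, 17 YAP and 16 YAP5SA peaks, and chromosome 20 had 28, 20 and 17. The order of the lists therefore changed from place to place. Chromosomes 1 and 7 had most from YAP, and chromosomes 10, 21, 8 and 20 most from TEAD.

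Sides of 1 stretch could differ as much as chromosomes. On the higher-coordinate side of chromosome 7 there were 42 YAP and 6 TEAD members, and on its lower-coordinate side 14 and 9. On chromosome 18 the higher-coordinate side had 23 TEAD and 2 YAP members. On chromosome 4 the lower-coordinate side had 37 TEAD and 7 YAP members and the other side 0 and 3. YAP members were at least 3 times as many as TEAD members in 8 of the 36 flanks, and the reverse held in 7. Over the flanks, the YAP and TEAD counts had a Spearman correlation of 0.34 (Pearson 0.41), while YAP and YAP5SA had 0.03 (-0.0044) and TEAD and YAP5SA 0.16 (0.10). These describe 36 flanks, 2 of each chromosome, whose length of readable sequence all lists share. Without the 2 fullest flanks the Pearson value was 0.56 for YAP and TEAD, 0.096 for YAP and YAP5SA and 0.12 for TEAD and YAP5SA.

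**Figure D3:**
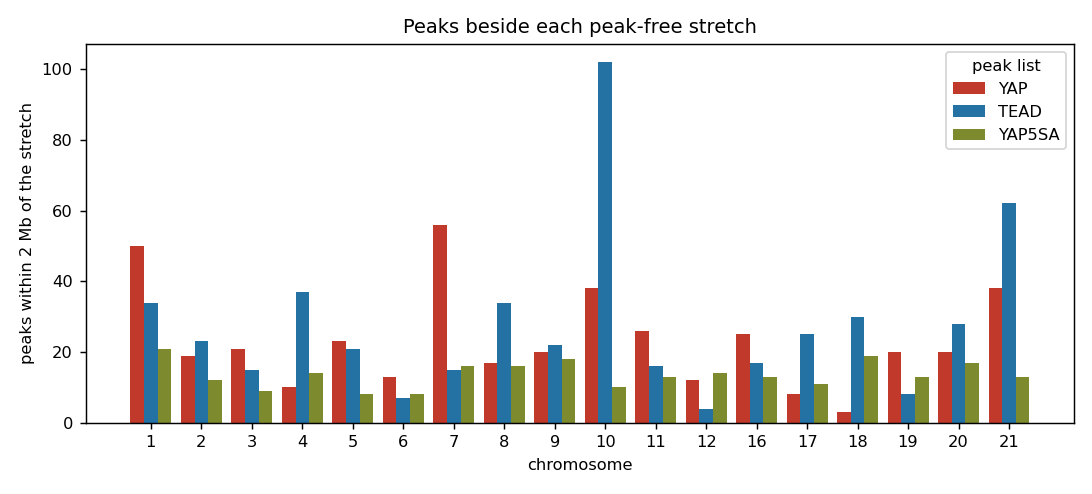
Number of peaks within 2 Mb of the peak-free stretch of each of the 18 chromosomes that have one, by list. TEAD stands highest on chromosomes 10 (102) and 21 (62) and YAP on chromosomes 7 (56) and 1 (50), while YAP5SA stays between 8 and 21.

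Contig members were concentrated too. Of 37 contigs with a peak, 22 belong to no chromosome and 15 to a chromosome without a place on it. Only 4 had peaks of all 3 lists and 19 had peaks of 1 list. Un_gl000216 had 52 TEAD and 17 YAP peaks and no YAP5SA peak, which made it 56.5% of the TEAD contig members. Un_gl000225 had 16 TEAD, 12 YAP and 3 YAP5SA peaks. The contig 9_gl000199_random had 8 YAP, 4 TEAD and 7 YAP5SA peaks, but they covered very different lengths: 129266 bp for YAP, 62431 bp for YAP5SA and 8408 bp for TEAD. The next contigs had few peaks. They were 1_gl000192_random with 4 TEAD and 2 YAP5SA peaks, 9_gl000200_random with 3 TEAD, 2 YAP and 1 YAP5SA peak, and 19_gl000208_random with 5 YAP peaks and none of another list.

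Members met the other lists more often than peaks elsewhere where YAP and TEAD were compared. A TEAD peak was met by 106 of 483 YAP members (21.9%, 95% interval 18.3 to 25.9), against 214 of 3384 other YAP peaks (6.32%) and 8.28% of the list. A YAP peak was met by 172 of 592 TEAD members (29.1%, 25.4 to 32.9), against 246 of 8729 other TEAD peaks (2.82%) and 4.48% of the list. Members were thus 6.35% of the TEAD peaks but 41.1% of those at a YAP peak. The excess was largest in clusters, which are defined below. YAP members met a TEAD peak in 32.5% of cases in clusters and 10.1% outside them (6.50 to 14.8). TEAD members met a YAP peak in 38.9% of cases in clusters and 9.95% outside them (6.18 to 14.9). Peaks elsewhere were not split in this way.

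For YAP5SA the picture was mixed. It was met by 14 YAP members (2.90%, 1.59 to 4.82), against 2.60% of other YAP peaks and 2.64% of the list, and the share fell below that of other peaks without chromosome 8 (1.93%) or 9_gl000199_random (2.32%). It was met by 21 TEAD members (3.55%, 2.21 to 5.37), against 5.62% of other TEAD peaks and 5.49% of the list. In the other direction 19 YAP5SA members met a YAP peak (6.69%, 4.08 to 10.3; 0.986% elsewhere, 1.15% over the list) and 21 met a TEAD peak (7.39%, 4.64 to 11.1; 5.38% elsewhere, 5.44% over the list). The 19 rested in part on 9_gl000199_random, without which the share was 4.33%, and the 21 on chromosome 18, without which the share was 4.15%.

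Sharing also changed with distance. In the first 10 kb, 71.1% of TEAD peaks and 45.5% of YAP peaks met another list, and at 50 to 100 kb 14.3% and 9.80% did. It was higher again farther out, for TEAD with 37.9% at 100 to 200 kb, 28.2% at 200 to 500 kb and 38.7% at 500 kb to 1 Mb. At 500 kb to 1 Mb, 27 of the 29 shared TEAD peaks were in 1 place on chromosome 4, from 49093193 to 49158713. For YAP the share was 53.8% at 200 to 500 kb (35 of 65), a bin in which chromosomes 10 and 21 had most of the YAP peaks. Outside the limit, at 2 to 5 Mb, 9.61% of TEAD peaks and 7.74% of YAP peaks met another list. In the nearest part of that range, 2 to 3 Mb, the shares were 13.4% and 13.8%, so those at 50 to 100 kb were near the outside level.

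Width went with overlap. Among YAP members over 1 kb, 41.4% met a TEAD peak, and among narrower ones 15.8%, where narrower YAP peaks elsewhere had 5.60%. Among TEAD members over 1 kb, 77.6% met a YAP peak, and among narrower ones 20.9%, against 2.41% of narrower TEAD peaks elsewhere. Wide peaks elsewhere, among them those beside the X and Y stretches, had shares of 61.4% for YAP at TEAD and 56.1% for TEAD at YAP. For narrower YAP members at YAP5SA the order turned: 2 of 367 (0.545%, 0.0661 to 1.95) against 84 of 3340 elsewhere (2.51%). Requiring 50% of both peaks to overlap left 10.6% of YAP members at TEAD and 8.61% of TEAD members at YAP, both still above peaks elsewhere in that setting (3.78% and 1.47%).

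**Figure D4:**
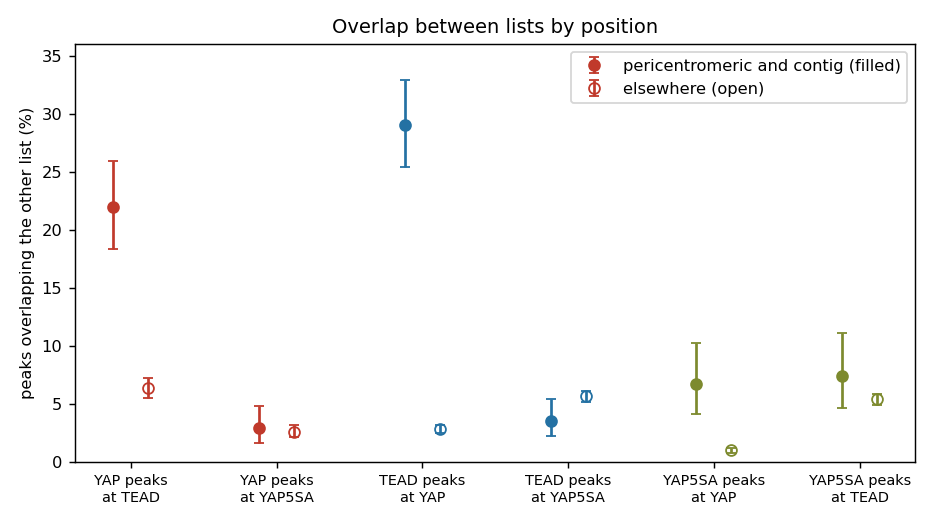
Percentage of peaks that overlap a peak of another list by at least 1 bp, for members (filled) and other peaks (open), with exact 95% intervals that treat peaks as independent. Members stand above other peaks for YAP at TEAD (21.9% against 6.32%), TEAD at YAP (29.1% against 2.82%) and YAP5SA at YAP (6.69% against 0.986%), and not for TEAD at YAP5SA (3.55% against 5.62%).

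Taking either other list, 113 YAP members were shared (23.4%, list 9.10%), 184 TEAD members (31.1%, list 9.15%) and 34 YAP5SA members (11.97%, list 5.83%). Of all 1359 members 331 were shared (24.4%) against 7.74% of all peaks. All 17 YAP5SA members in clusters were shared. Of the 267 outside clusters 6.37% were (3.75 to 10.0), against 5.65% of other YAP5SA peaks. Merging members that overlap gave 1151 regions: 408 with TEAD alone, 370 with YAP alone and 250 with YAP5SA alone. YAP and TEAD met in 97 regions, TEAD and YAP5SA in 12, YAP and YAP5SA in 7 and all lists in 7. Peaks elsewhere were not merged in this way, so these counts have no outside share to be read against. Bases gave another view, since 1 wide peak of a list can hold many of another. YAP peaks held 54.9% of the bases of TEAD members (5.55% for other TEAD peaks) and 64.3% of the bases of YAP5SA members (1.57% for other YAP5SA peaks). The latter share rested on few sites, since only 19 YAP5SA members met a YAP peak. Of the 113 kb so held, 62.4 kb lay on contigs, where all 7 shared YAP5SA peaks were on 9_gl000199_random. Near stretches the share was 50.7%, with peaks of 18.5 kb on chromosome 17 and 16.7 kb on chromosome 2 among those held. TEAD peaks held 31.2% of the bases of YAP members (9.77% for other YAP peaks) and 20.8% of the bases of YAP5SA members (7.88% for other YAP5SA peaks). YAP5SA peaks held 15.6% of the bases of YAP members (2.09% for other YAP peaks). Of the bases of TEAD members they held 8.92% (5.94% for other TEAD peaks), where the count of peaks went the other way. This base share, 36.5 kb, rested largely on few wide sites. On chromosome 17 alone, 5 TEAD peaks covering 95.0% of 18.5 kb met a YAP5SA peak of about the same span.

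Among the 7 regions where all lists met, 6 were wide sites at a stretch or on a contig, and the remaining one was unlike them. On chromosome 17 from 22244347 to 22263064 a YAP peak of 18718 bp, a YAP5SA peak of 18508 bp and 5 TEAD peaks of up to 5158 bp met beside the stretch. They held rank 10 of the YAP list, rank 69 of the YAP5SA list and, at best, rank 239 of the TEAD list. On chromosome 2 from 92305193 to 92326242 a YAP peak of 21050 bp (rank 8) met a YAP5SA peak of 16714 bp (rank 81) and 2 TEAD peaks (best rank 1615). On chromosome 8 a YAP peak of 18207 bp ending at the stretch (rank 7) met a YAP5SA peak of 2953 bp (rank 764) and 3 TEAD peaks (best rank 2232). Also on chromosome 8, from 46847128 to 46857726, peaks of 10599 bp for YAP, 8141 bp for YAP5SA and 4647 bp for TEAD met 8.22 kb beyond it.

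The contig 9_gl000199_random had both others of the wide sites. From 39978 to 125916 its YAP peak (rank 1) held 4 YAP5SA peaks (best rank 16) and 3 TEAD peaks (best rank 7463), and from 133220 to 166498 a YAP peak of rank 14 met 2 YAP5SA peaks and 1 TEAD peak. The remaining region lay on chromosome 18 from 13674777 to 13675958, 1498 kb from the stretch. There the TEAD peak was of rank 1 and 1182 bp wide, beside 3 YAP5SA peaks of up to 296 bp (best rank 241) and a YAP peak of 382 bp (rank 3010). The widest peak was thus from TEAD, where in the 6 others it was from YAP. The neighbouring TEAD peak, from 13673001 to 13674312, also met 3 YAP5SA peaks. Rank 1 was a tie at the score of 3100, held by 6 peaks of the YAP list and 8 of the TEAD list.

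Members gathered in clusters, taken as runs of at least 3 peaks from 1 list. Neighbours were joined across any gap shorter than 12515 bp, the narrowest gap found that ended a run. Of YAP members 255 lay in clusters (52.8%, 95% interval 48.2 to 57.3), against 2.54% of other YAP peaks and 8.82% of the list. With the peaks beside the X and Y stretches moved to the members, the 2.54% became 0.756%. Of TEAD members 391 did (66.0%, 62.1 to 69.9), against 27.01% of other TEAD peaks and 29.5% of the list. Of YAP5SA members 17 did (5.99%, 3.53 to 9.41), against 1.28% of other peaks and 1.41% of the list, and 7 of the 17 were on 9_gl000199_random. Without that contig the share was 3.61%, and without chromosome 18 it was 3.77%. Over all lists, 663 members lay in clusters (48.8%) against 14.1% of all peaks. YAP members formed 42 clusters, of which 21 spanned a TEAD peak, 6 a YAP5SA peak and 19 neither. TEAD members formed 39, of which 24 spanned a YAP peak, 9 a YAP5SA peak and 10 neither. All 4 YAP5SA clusters spanned a YAP peak. They were 7 peaks on chromosome 18 from 13673154 to 13675791, runs of 4 and 3 peaks on 9_gl000199_random, and 3 peaks on chromosome 8 from 43092729 to 43097097. Counts of clusters spanning another list are not given here for clusters elsewhere, so they cannot be called high or low.

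The largest clusters differed in how the lists lay in them. On chromosome 21 from 10774158 to 10860690, 305 kb from the stretch, 55 TEAD peaks of median width 400 bp covered 30.7% of the span, with 17 YAP peaks and no YAP5SA peak in it, and 18 of the 55 met a YAP peak. The YAP cluster inside it, 14 peaks from 10819150 to 10858699, had 12 peaks at a TEAD peak. On Un_gl000216, 50 TEAD peaks stood with 11 YAP peaks in 83.0 kb. On chromosome 10 from 39076593 to 39153986, up to the edge of the stretch, 44 TEAD peaks stood with 10 YAP peaks.

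On chromosome 1 from 121351852 to 121463182 the balance was the other way. There 37 YAP peaks of median width 996 bp covered 33.8% of the span, with 22 TEAD peaks and 1 YAP5SA peak, and 10 of the 37 met a TEAD peak. On chromosome 11 from 51567059 to 51594034, 16 YAP peaks covered 59.4% of the span, and 8 of them met one of 10 TEAD peaks. A further YAP cluster, named here after its values were seen, was 12 peaks on chromosome 7 from 61139383 to 61204377. Its median width was 534.5 bp, and it spanned no peak of another list.

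On chromosome 4, a place also singled out after its values were seen, the lists had nearly the same ends. There 27 TEAD peaks ran from 49093193 to 49158713 and covered 94.4% of it, and 3 YAP peaks ran from 49093205 to 49158707 and covered 99.9%. No YAP5SA peak lay in it. At the edge of the same stretch, 3 TEAD peaks ran from 49633203 to 49660127 and all met a YAP peak from 49633255 to 49660150, again without YAP5SA.

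**Figure D5:**
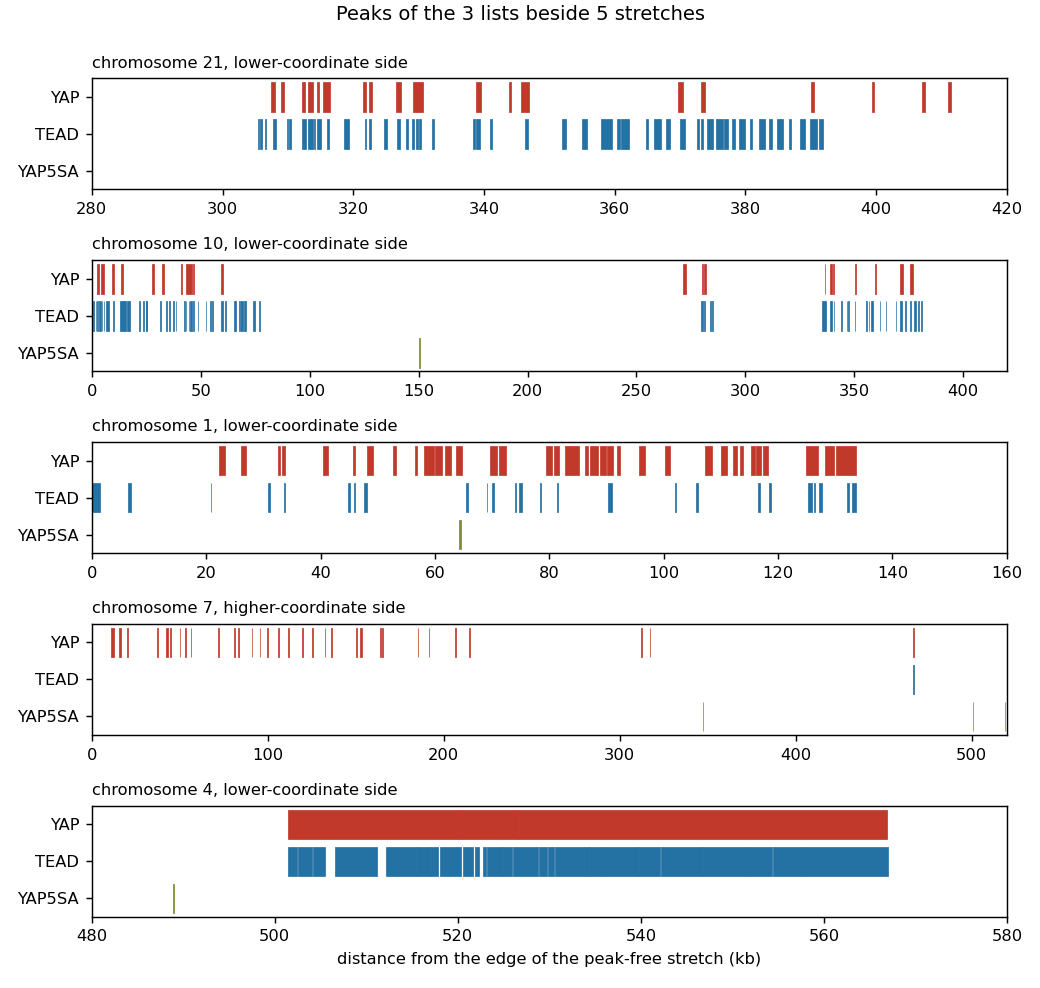
Peaks of the 3 lists as bars, by distance (kb) from the edge of the peak-free stretch, at 5 places on chromosomes 21, 10, 1, 7 and 4. YAP and TEAD bars lie side by side on chromosomes 21, 10 and 1 and fill the same 65.5 kb on chromosome 4, chromosome 7 has a row of YAP bars with no TEAD bar among them, and YAP5SA bars are few throughout.

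Shared members outranked unshared ones within their lists. The median score was 86.2 against 61.0 for YAP members, 98.1 against 71.7 for TEAD members and 83.1 against 56.4 for YAP5SA members. For peaks elsewhere it was 68.4 against 57.7, 304 against 73.5 and 77.1 against 56.5, so shared TEAD peaks scored lower among members. Whether the same places would be called in the IgG, Input or BirA libraries was not tested.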

How the data were processed

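ChIP-seq peak lists of 3 libraries were used, 1 per group, and the lists of no other library. Reads were aligned to hg19 with Bowtie2, per the submitters' processing notes. The deposited score of each peak, from 50 to 3100, is the authors' value, and peak names begin with MACS, per the files. Caller version, threshold and control library: none of these is given in the labels or files used here, and read depth is unknown. Deposited starts and ends were read as half-open from 0 and are printed from 1, and 1 start below 0 was set to 0. Stretches were read between neighbouring peaks of the 3 lists together, and distances from the nearer ends.

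Counts, shares and exact 95% intervals were computed with Python 3.11.15, numpy 2.4.6, scipy 1.17.1 and pandas 2.3.3. Overlap meant at least 1 bp. Simulated lists with planted stretches were used to test the code, and all 22848 peaks were classed as planted, and its overlap counts equalled those of bedtools 2.31.1 for all 6 ordered pairs. The rule for named regions took, per list, the 5 widest members, the 5 of highest score, the 3 largest clusters and the 2 peaks on either side of the limit, and also the 6 fullest stretches and contigs and the regions of all lists. The members, lists and rules were chosen with earlier results of these data known. Only a GRCh38.p14 gene table was given, and it was not used with hg19 positions, so peaks carry no gene or sequence.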

Additional observations from a re-analysis of the deposited data

How the results depend on the processing

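No paired analysis was possible because there is only 1 library per group, and no test was made. The 1359 members became 415 with stretches over 5 Mb, 859 within 500 kb, 195 on contigs alone and 760 among the higher-scoring 50% of each list. Shared members, 24.4%, became 21.7% with stretches over 5 Mb, 27.8% within 1 Mb, 29.1% within 500 kb, 28.3% with chromosomes X and Y, 9.64% at 50% reciprocal overlap and 13.6% with centres within 250 bp. Members over 1 kb, 16.0%, became 20% with stretches over 5 Mb, 19.8% within 1 Mb, 20.5% within 500 kb, 26.2% on contigs, 25.4% among higher scores, 35.5% at a limit of 500 bp and 6.62% at 2 kb. Clustered members, 48.8%, became 57.3% within 1 Mb, 63.2% within 500 kb, 45.8% with stretches before a first peak, 53.3% with X and Y, 53.8% on contigs, 44.7% without chromosome 10, 37.97% at a distance of 5 kb and 54.1% at 25 kb. Under each of these 11 settings per share, members stayed above peaks elsewhere, as did YAP at TEAD, TEAD at YAP and YAP5SA at YAP. By count of peaks TEAD at YAP5SA stayed below in all 11. By the same count YAP at YAP5SA was above in 7 and below in 4, and YAP5SA at TEAD above in 6 and below in 5. For these pairs neither direction held, and the cause was not tested. Shares of bases, computed without these changes of setting, were higher for members in each of these comparisons. Those that involve YAP5SA rested largely on few wide sites. Leaving out chromosomes or contigs singly was added after the data were seen, and 4 shares moved beyond their intervals. They were wide TEAD members without chromosome 4 (11.35%) and clustered TEAD members without chromosome 10 (60%). The others were YAP5SA at TEAD without chromosome 18 (4.15%) and wide YAP5SA members without 9_gl000199_random (3.25%). Unknown depth and caller settings limit comparison between lists.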

Other observations

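Chromosomes X and Y are outside the rule but had stretches of the same kind, 1 on X and 2 on Y. Of the TEAD peaks on Y, 114 of 115 lay within 2 Mb of one, as did 59 of 66 YAP peaks and 7 of 44 YAP5SA peaks. On X these were 24 of 125 TEAD peaks, 20 of 135 YAP peaks and 5 of 465 YAP5SA peaks. The YAP peaks near the X stretch reached 21.2 kb and those near the Y stretches 40.3 kb, while no YAP5SA peak there exceeded 331 bp. The median width of the TEAD peaks was 1067 bp on X and 238 bp on Y, the latter close to the 214 bp of the whole TEAD list.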
